A study of Cornus officinalis with 7 samples.

Results

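The iridoid pathway that the study proposes for *Cornus officinalis* contains 4 steps assigned to cytochrome P450s, and 6 unigenes annotated to these steps are described here. They were chosen by identifier from the 304371 unigenes of the *de novo* assembly: Unigene037166 for geraniol 10-hydroxylase (G10H), Unigene100054 for iridoid oxidase (IO), Unigene112559 and Unigene120969 for 7-deoxyloganic acid hydroxylase (7DLH), and Unigene075938 and Unigene137214 for secologanin synthase (SLS). The enzyme names come from the study and rest on similarity to proteins of other plants. From the unigenes so annotated, the study kept a smaller co-expressed cluster, drawn from expression in the same tissues, as pathway candidates. Membership of that cluster was not used here, so the 6 unigenes are described as homologs annotated to a step. The list of annotated unigenes runs in a first and a second sorted block, and the first is as long as that cluster. Unigene037166, Unigene100054, Unigene112559 and Unigene137214 stand in the first block, and Unigene120969 and Unigene075938 in the second. If the first block is the cluster, the 7DLH pair and the SLS pair each set a candidate beside a homolog left out. This was not checked. Expression was measured by RNA-seq in leaf and stem, each at a young and a mature stage, and in seed, pericarp and inflorescence of 12-year-old plant material, which grew without treatment in a medicinal garden and carries a single material identifier. Each tissue gave 1 library. The unigenes were picked with their expression known, so the levels below are a description, and with 1 library per tissue no difference between tissues has a replicate check or a test.

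Iridoids are monoterpenoids built from geraniol, and iridoid glucosides such as loganin and morroniside are regarded as main medicinal constituents of *Cornus* fruit. G10H opens the pathway by hydroxylating geraniol. After oxidation and cyclization by enzymes that are not P450s, IO oxidizes the iridoid ring system to 7-deoxyloganetic acid, which is then glucosylated. In *Catharanthus roseus*, where these enzymes have been characterized, 7DLH hydroxylates 7-deoxyloganic acid to loganic acid, a methyltransferase turns this into loganin, and SLS opens the cyclopentane ring of loganin to give secologanin.

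The values are FPKM (fragment counts scaled by unigene length and by the mapped fragments of the library), which were estimated by the authors and sum to between 876794 and 992186 per library. FPKM holds no read counts, so the depth behind a value is unknown. Relative depth was estimated from the most frequent ratio of values of unigenes above 0 in exactly 2 libraries. By this estimate 1 fragment was worth 1.07 (seed) to 1.73 (inflorescence) times the FPKM it was worth in young stem. Low values would then be the least precise in inflorescence. For that tissue only 13.3% of 3605 unigenes lay at the most frequent ratio. All comparisons below use the 6 tissues other than mature stem, whose library shares few unigenes with the rest (80.6% of those above 0 in it were listed at 0 in all other tissues) and in which 3 of the 6 described were listed at 0 and the highest reached an FPKM of 0.65. The tissues are mixtures of cells, so a low value may stand for few expressing cells or for little RNA per cell, which cannot be told apart. Of the 6 unigenes, Unigene137214 alone appears in the study's table of cytochrome P450s over a minimum length and an FPKM of 5 in at least 1 tissue. Another 4 reached this FPKM but are not in the table as used here, and whether they are complete transcripts was not tested. Since RSEM divides fragments between similar unigenes, the values of unigenes of 1 step are less certain than their sum.

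The SLS unigenes changed places between the leaves and the fruit. Unigene075938 was among the most abundant transcripts of the green tissues: its FPKM was 1929 in young leaf, 1470 in mature leaf and 965 in young stem, which placed it at rank 40 of 126910, rank 60 of 127640 and rank 33 of 151729 unigenes above 0 in these libraries. It had 140 in inflorescence, 8.62 in pericarp and 3.45 in seed. Its level in young leaf was thus 559 times that in seed. Both leaves and young stem lay far above the other tissues, and both fruit tissues lay lowest.

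Unigene137214 followed another order. Its FPKM was 91.7 in pericarp, 54.5 in inflorescence, 54.3 in young stem, 27.3 in young leaf, 22.4 in mature leaf and 20.2 in seed. The highest value was 4.53 times the lowest, so this unigene was present at a moderate level throughout. Inflorescence and young stem stood level in FPKM and swapped places when the libraries were rescaled, whereas pericarp was highest under both rescalings tried.

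Set side by side, Unigene075938 exceeded Unigene137214 in 4 of the 6 tissues, by 70.7 times in young leaf, 65.7 times in mature leaf, 17.8 times in young stem and 2.56 times in inflorescence. In pericarp and seed the order was inverted, and Unigene137214 was 10.6 and 5.86 times higher. Of the summed FPKM of the 9 unigenes annotated as SLS, Unigene075938 held 98.3% in young leaf, 98.1% in mature leaf, 93.0% in young stem and 65.4% in inflorescence, but 6.77% in pericarp and 8.55% in seed. Unigene137214 held 72.1% in pericarp and 50.1% in seed, and 25.5% in inflorescence. The other 3 SLS unigenes that reached an FPKM of 1 in these tissues stayed at or below 17.95, the value of Unigene075850 in pericarp. As a description over 6 tissues of the same material, the log2(FPKM + 1) values of both SLS unigenes had Pearson's r = -0.21 and Spearman's rho = -0.09. Without seed r was -0.87 and without pericarp it was 0.26, so no direction of the relation can be read from these tissues.

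**Figure D1:**
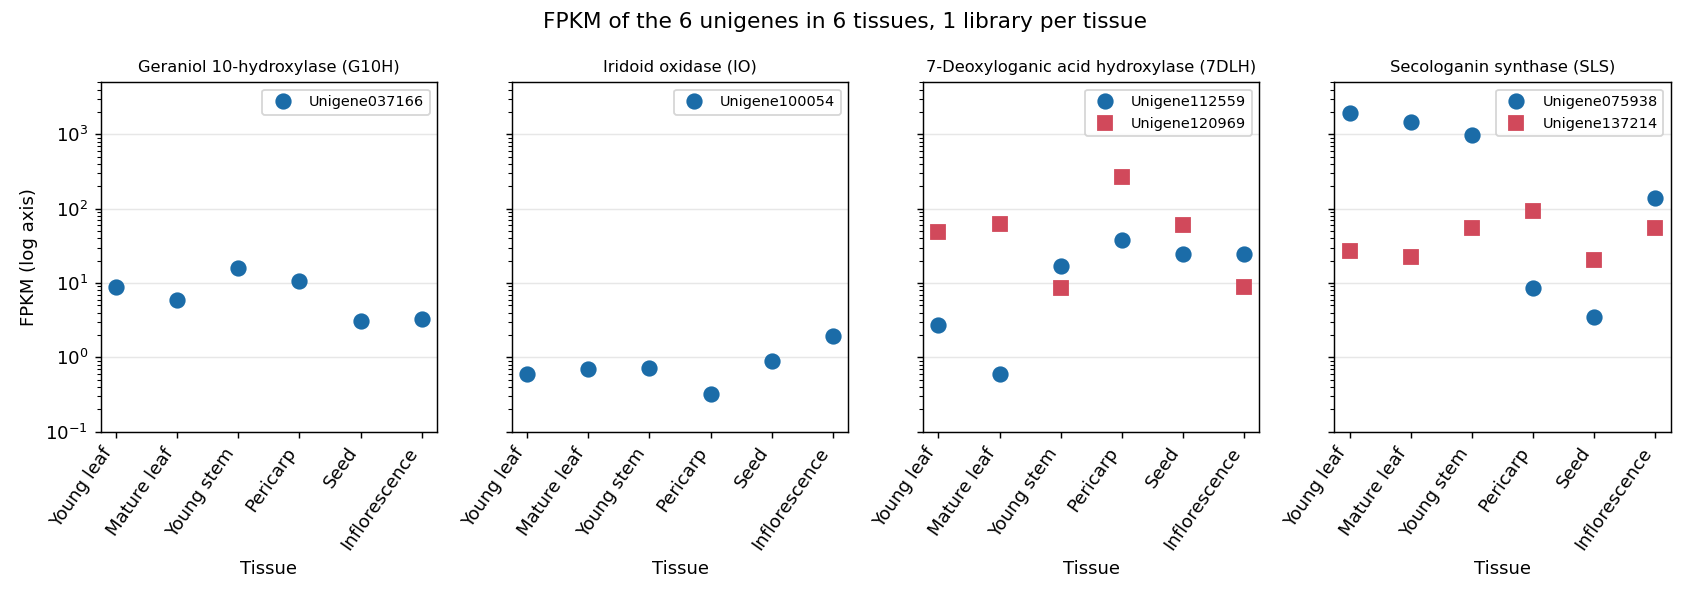
FPKM (log axis) of the 6 unigenes in 6 tissues, in a panel for each P450 step, with 1 point for the 1 library of each tissue. SLS Unigene075938 falls from 1929 in young leaf to 3.45 in seed and crosses Unigene137214, while the 7DLH unigenes cross between leaf and young stem.

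The 7DLH unigenes also exchanged rank between tissues, with a different division of the plant. Unigene120969 had its highest FPKM, 264, in pericarp, followed by 62.0 in mature leaf, 60.0 in seed, 49.2 in young leaf, 8.81 in inflorescence and 8.69 in young stem. Pericarp stood 4.26 times above the next tissue, mature leaf, seed and young leaf formed a middle group, and young stem and inflorescence were lowest. In pericarp the unigene held rank 301 of 131116.

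Unigene112559 had 38.0 in pericarp, 24.4 in seed, 24.3 in inflorescence, 17.0 in young stem, 2.69 in young leaf and 0.60 in mature leaf. Pericarp was highest for both 7DLH unigenes, but the leaves, which came in the middle for Unigene120969, were lowest for Unigene112559. The range of Unigene112559 was 63.4-fold and that of Unigene120969 30.4-fold. Seed and inflorescence stood level for Unigene112559.

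Unigene120969 was higher than Unigene112559 in 4 tissues, by 103 times in mature leaf, 18.3 times in young leaf, 6.94 times in pericarp and 2.46 times in seed. Unigene112559 was higher in inflorescence, by 2.76 times, and in young stem, by 1.96 times. Another 7DLH unigene, Unigene276335, led the step in both leaves, with an FPKM of 104 in young leaf and 76.0 in mature leaf, or 56.9% and 43.2% of the sum of the 5 7DLH unigenes, while it was listed at 0 in young stem, pericarp and inflorescence and had 0.22 in seed. The leading 7DLH unigene was therefore Unigene276335 in the leaves, Unigene120969 in the fruit (82.0% of the sum in pericarp and 69.0% in seed) and Unigene112559 in inflorescence and young stem (69.5% and 49.9%). Between Unigene112559 and Unigene120969, r was -0.03 and rho 0.26 over the 6 tissues. This r was -0.59 without pericarp, 0.58 on FPKM without the logarithm and 0.44 with mature stem, so here too no direction can be read.

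**Figure D2:**
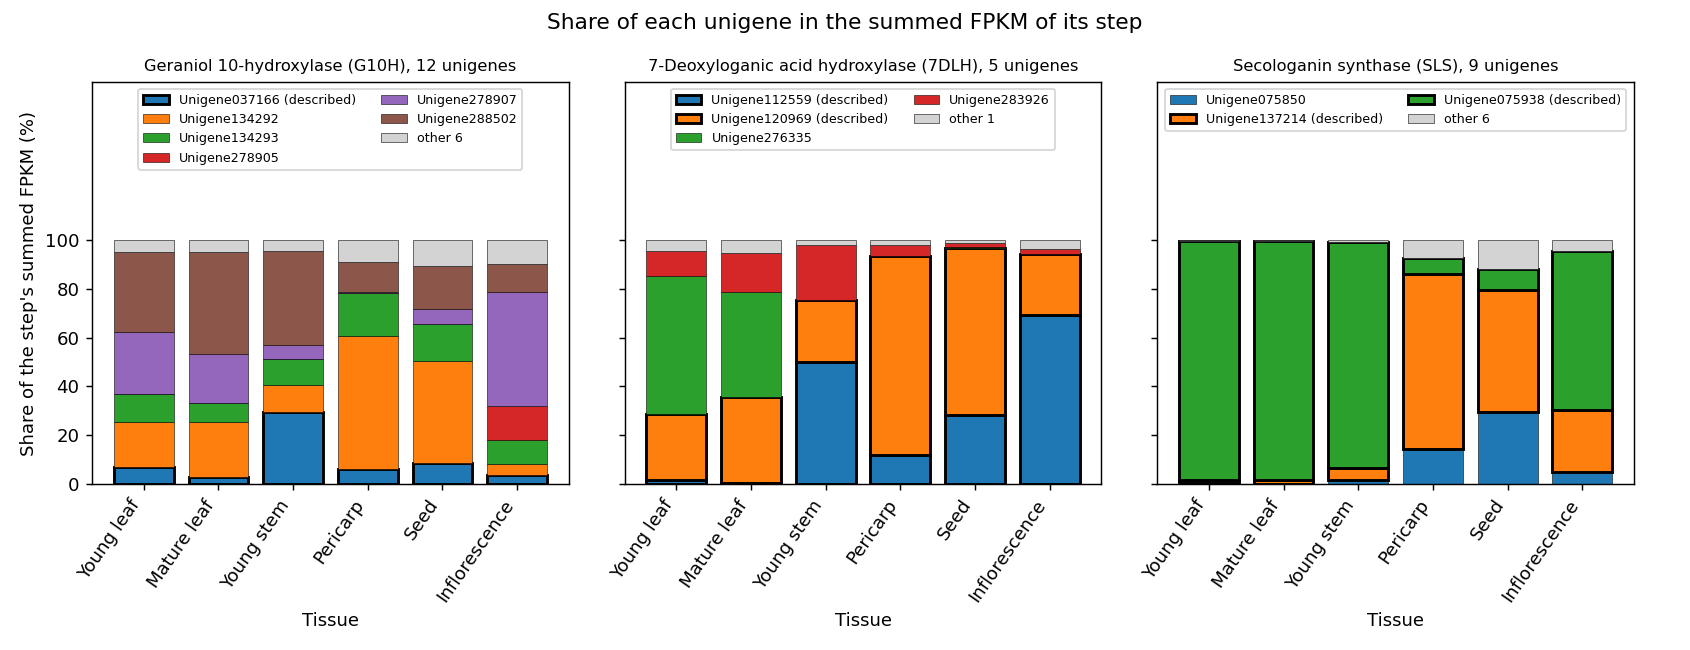
Share (%) of each unigene in the summed FPKM of all unigenes annotated to its step, for G10H, 7DLH and SLS in 6 tissues with 1 library each; thick outlines mark the unigenes described and grey the remaining ones. SLS is almost wholly Unigene075938 in leaf and young stem and mostly Unigene137214 in pericarp, and 7DLH has a different leader in leaf, fruit, and inflorescence with young stem.

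G10H, the entry to the pathway, had 12 annotated unigenes, and Unigene037166 was a minor one in most tissues. Its FPKM was 16.2 in young stem, 10.6 in pericarp, 8.76 in young leaf, 5.97 in mature leaf, 3.25 in inflorescence and 3.05 in seed. Young stem stood highest and was 5.30 times above seed, while inflorescence and seed were close and swapped places under the median-ratio rescaling. Unigene037166 supplied 29.4% of the summed G10H FPKM in young stem, where it ranked 2 of 12, and between 2.68% (mature leaf) and 8.58% (seed) elsewhere.

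Larger shares of G10H lay with Unigene288502, Unigene134292 and Unigene278907. Unigene288502 led in mature leaf with an FPKM of 93.5, in young leaf with 43.1 and in young stem with 21.2. Unigene134292 led in pericarp with 92.4 and in seed with 14.9. Unigene278907 led in inflorescence with 40.6. As for 7DLH, the leaves and the fruit were thus led by different unigenes of the step, although young stem here had the same leader as the leaves.

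IO was represented by Unigene100054 alone, and its level was low in every tissue. Its FPKM was 1.94 in inflorescence, 0.89 in seed, 0.73 in young stem, 0.70 in mature leaf, 0.59 in young leaf and 0.32 in pericarp. Inflorescence was 2.18 times above seed and 6.06 times above pericarp, and the remaining tissues lay close together. Even in inflorescence 45.5% of the unigenes above 0 were at or above its level, and in pericarp 93.7%. Inflorescence was also the library in which 1 fragment was estimated to be worth the most FPKM, and the part of this in the inflorescence value was not tested.

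Across the 6 tissues, 5 of the 6 unigenes differed by 4-fold or more on the scale of log2(FPKM + 1), and IO did not. Among all 189885 unigenes that reached an FPKM of 1 in any of these tissues, 28.1% did so, and this share rose to 62.7% of 44942 unigenes at a minimum FPKM of 5, which 5 of the 6 passed. The median range was 3.37 on the log2 scale for the 6 unigenes and 1.58 for all unigenes. Unigene075938 had a range of 8.76, which 0.0479% of all unigenes reached. Unigene120969 and Unigene112559 had ranges of 4.77 and 4.61, reached by 1.15% and 1.33%. Most of the 189885 unigenes stayed below an FPKM of 5 and could not reach such ranges on this scale. Unigene137214 and Unigene037166, with 2.13 and 2.08, lay just past 4-fold, among the 23.4% and 24.9% of unigenes with such a range, and each fell just short of 4-fold under 1 rescaling of the libraries, Unigene137214 with TPM (1.9998) and Unigene037166 with the median ratio (1.995). IO Unigene100054 had 1.16.

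**Figure D3:**
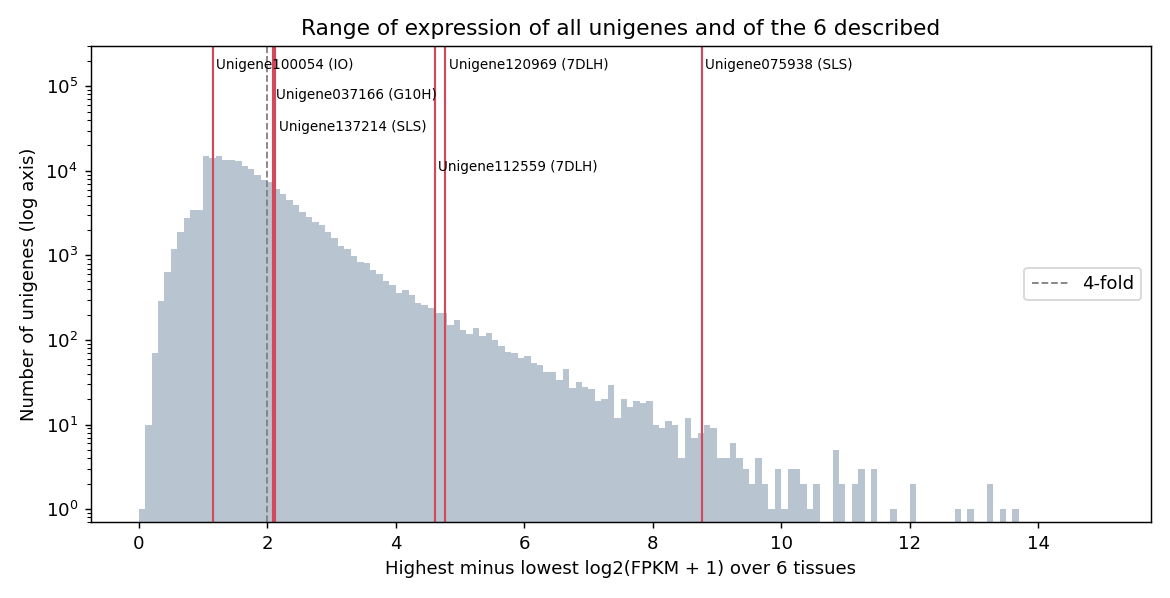
Histogram of the difference between the highest and lowest log2(FPKM + 1) over 6 tissues for 189885 unigenes (number of unigenes on a log axis), with red lines at the 6 unigenes described and a dashed line at 4-fold. Unigene075938 lies in the far tail at 8.76, both 7DLH unigenes lie above 4, and the other 3 lie at or below 2.13.

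All 6 unigenes were above 0 in every one of the 6 tissues, as were 18 of the 27 unigenes annotated to the P450 steps. Of all unigenes that reached an FPKM of 1 in any of these tissues 26.3% were above 0 in all 6, and of those that reached 5 it was 63.0%. On the tissue specificity index tau, which is 0 for equal log2(FPKM + 1) in all tissues and 1 for presence in a single tissue, they ran from 0.22 for Unigene137214 to 0.54 for Unigene100054, with a median of 0.39. The median of all unigenes was 0.71, but many of these are low and listed at 0 in several tissues, which brings tau close to 1.

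Taken by pairs of tissues, a value 4-fold or more apart was found for 12 of the 36 values of 6 unigenes in 6 comparisons. Over all unigenes the mean share in the same comparisons was 6.84%, or 16.3% at a minimum FPKM of 5. With a pseudocount of 0.1 it was 37.3%, against 13 of 36 values of the 6 unigenes. Several of these comparisons share a library, so they are not independent of each other. Between pericarp and seed, the parts of the fruit, Unigene120969 and Unigene137214 were higher in pericarp, by 2.12 and 2.13 on the log2(FPKM + 1) scale, and none of the 6 was higher in seed. Of all unigenes, 3.56% were 4-fold or more higher in pericarp and 3.61% in seed. Both calls rest on the scaling of the libraries, since with TPM, FPKM rescaled to an equal sum per library, the differences were 1.99 and 1.9998. IO was the only one of the 6 with a lower value in pericarp than in seed, by 0.52 on the log2 scale.

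Between pericarp and young leaf, Unigene112559 and Unigene120969 were higher in pericarp, by 3.40 and 2.40 on the log2 scale (3.98% of all unigenes), and Unigene075938 was lower, with a difference of -7.65 (2.69% of all unigenes). The SLS partner Unigene137214 had a difference of 1.71 in the opposite direction, short of 4-fold.

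Young stem and inflorescence set the 7DLH unigenes apart from the leaf. Against young leaf, Unigene112559 was higher in young stem by 2.29 (2.30% of all unigenes) and in inflorescence by 2.78 (6.47%), while Unigene120969 was lower, with differences of -2.37 in young stem (1.75%) and -2.35 in inflorescence (2.98%). SLS Unigene075938 was also 4-fold or more lower in inflorescence than in young leaf, at -3.78, and in young stem its difference of -0.999 did not reach 4-fold. Between inflorescence and pericarp, Unigene075938 was higher in inflorescence by 3.87 (6.73% of all unigenes) and Unigene120969 was lower, at -4.75 (4.54%).

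Between young and mature leaf none of the 6 unigenes differed by 4-fold on the log2(FPKM + 1) scale, as against 1.24% of all unigenes that were higher and 1.18% that were lower in young leaf. Unigene075938 was 1.31 times, Unigene137214 1.22 times and Unigene037166 1.47 times higher in young leaf, and Unigene120969 had 0.79 times and Unigene100054 0.84 times its mature leaf value. The largest ratio, 4.48 for Unigene112559, rests on FPKM values of 2.69 and 0.60. Rescaling by the median ratio of widely expressed unigenes raised mature leaf by 0.30 and young leaf by 0.07 on the log2 scale, and the differences of Unigene137214, Unigene075938 and Unigene037166 went from 0.28, 0.39 and 0.49 to 0.06, 0.16 and 0.29, while those of Unigene120969 and Unigene100054 went from -0.33 and -0.10 to -0.55 and -0.20.

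**Figure D4:**
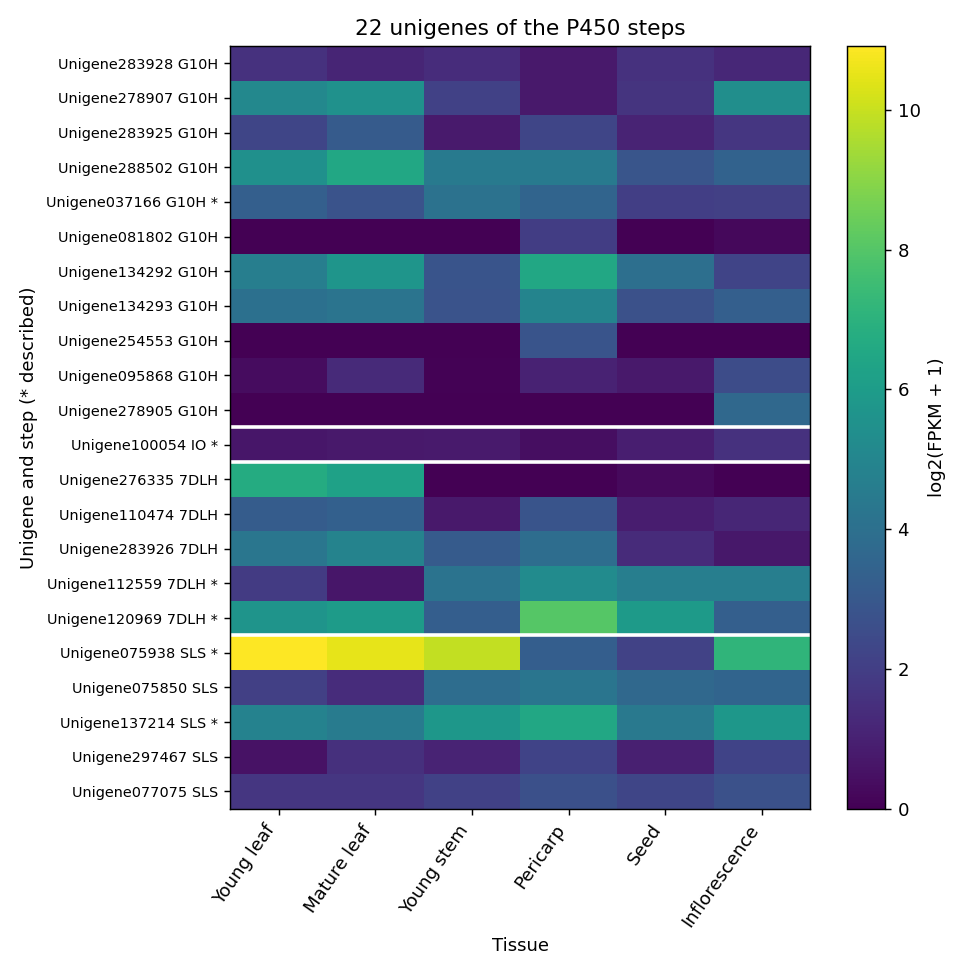
Heatmap of log2(FPKM + 1) for the 22 unigenes of the P450 steps that reached an FPKM of 1 in any of 6 tissues, in rows grouped by step and ordered by the tissue of their highest value, with 1 library per column; asterisks mark the 6 unigenes described. SLS Unigene075938 is the brightest row in leaf and young stem, IO is dark throughout, and pericarp holds the highest value of 9 rows.

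Summed over all unigenes annotated to a step, within or outside the study's co-expressed cluster, the P450 steps peaked in different tissues. The leaf peaks were led by unigenes of the list's second block, Unigene075938 for SLS and Unigene288502 for G10H. In the first block, SLS Unigene137214 and Unigene075850 were highest in pericarp, at 91.7 and 17.95, and G10H Unigene037166 in young stem, at 16.2. The sums are therefore not the pattern of the first block. SLS reached a summed FPKM of 1962 in young leaf, 1498 in mature leaf and 1038 in young stem, against 213 in inflorescence, 127 in pericarp and 40.4 in seed. 7DLH was highest in pericarp with 322, followed by young leaf with 182 and mature leaf with 176, and reached 86.9 in seed, 35.0 in inflorescence and 34.1 in young stem. G10H was highest in mature leaf with 222 and in pericarp with 169, and lowest in seed with 35.5. IO stood below 2 in all tissues. In young leaf the summed SLS exceeded the summed 7DLH, whereas in pericarp and seed 7DLH exceeded SLS.

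Of the 27 unigenes annotated to the P450 steps, 22 reached an FPKM of 1 in any of the 6 tissues, and pericarp held the highest value for 9 of them (40.9%), against 18.3% of all unigenes. The 9 include 3 of the 6 unigenes described, both 7DLH unigenes and Unigene137214, which were picked with their values known. They also include Unigene254553 and Unigene081802, which passed the filter through pericarp alone, with an FPKM of 6.09 and 2.96 there. Seed was the highest tissue for none of the 22, against 19.4% of all unigenes. In the comparison of pericarp with seed, 6 of the 22 were 4-fold or more higher in pericarp and none in seed. The 6 include Unigene120969 and Unigene137214, which fell short of 4-fold with TPM, and Unigene254553, which was listed at 0 outside pericarp. The shares of all unigenes were 3.56% and 3.61% at a minimum FPKM of 1. They were not taken at a minimum of 5, where the mean share over the tissue comparisons rose from 6.84% to 16.3%. The median difference of the 22 was 1.23 on the log2 scale. Among the 44 other iridoid unigenes that passed the same filter, which cover the synthases, oxidoreductases, glucosyltransferases and methyltransferases, 6 were higher in pericarp and 4 in seed, with a median of 0.31, and the median of all unigenes was 0.00. Against young leaf, 4 of the 22 were higher in pericarp and 3 lower, beside 3.98% and 2.69% of all unigenes. In young stem 1 was higher and 4 lower (2.3% and 1.75%), and in inflorescence 3 were higher and 6 lower (6.47% and 2.98%). Of the 44 others, 4 were higher and 5 lower in pericarp, 5 and 2 in young stem, and 4 and 1 in inflorescence. The 22 unigenes include the 6 described, and their list was assembled by the study from sequence similarity. The study took only its smaller co-expressed cluster as pathway candidates, so these counts describe annotated homologs and not that set.

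Of the 5 unigenes of the P450 steps that did not pass, all had their highest FPKM in mature stem. They were 4 SLS unigenes and 1 G10H unigene, led by SLS Unigene107453 with an FPKM of 42.9 in mature stem and 0.07 in pericarp. Unigene075938 and Unigene137214 had 0.65 and 0.09 in that library and Unigene120969 had 0.48, while G10H Unigene037166, IO Unigene100054 and Unigene112559 were listed at 0, which can also be a failed estimate.

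Within the list of 83 iridoid unigenes, each of the 6 was compared with the others by Pearson's r of log2(FPKM + 1) over the 6 tissues, as a description without a test. With only 6 points, a high r is common, so the share of all unigenes with an r at least as high is given beside each. Part of the list forms the study's co-expressed cluster, drawn from the same tissues. A high r between 2 of its unigenes may thus have been selected in advance, and the shares do not allow for this. If the first block of the list is that cluster, this applies to Unigene112559 with Unigene075850 and to Unigene100054 with Unigene249289. It then also applies to Unigene137214 and to Unigene037166, each with both of its closest unigenes. Unigene112559 was most like SLS Unigene075850, with r = 0.98 (0.0527% of all unigenes), and 8-hydroxygeraniol oxidoreductase Unigene108326, with r = 0.97 (0.102%). Spearman's rho was lower, at 0.83 and 0.66. Unigene075850 had an FPKM of 17.9 in pericarp, 14.1 in young stem, 11.9 in seed, 10.4 in inflorescence, 3.16 in young leaf and 1.59 in mature leaf, so that it too was lowest in the leaves. Unigene075938 was most like Unigene274540, a 7-deoxyloganetic acid glucosyltransferase, with r = 0.95 (0.201%) and the same order of all 6 tissues, from 52.2 in young leaf to 0.34 in seed. Its second was geranyl diphosphate synthase Unigene093580, with r = 0.87 (1.31%).

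Unigene120969 was most like the leading G10H unigene of the fruit, Unigene134292, with r = 0.94 (0.211%), and next like iridoid synthase Unigene282791, with r = 0.83 (1.41%). Unigene134292 had 92.4 in pericarp, 50.8 in mature leaf, 24.2 in young leaf, 14.9 in seed, 6.05 in young stem and 3.67 in inflorescence, so pericarp was highest and young stem and inflorescence were lowest for both. Unigene137214 was most like geraniol synthase Unigene290657, with r = 0.92 (0.572%), whose highest FPKM was 3.52 in pericarp, and geranyl diphosphate synthase Unigene224044, with r = 0.87 (1.17%). Unigene037166 was nearest to iridoid synthase Unigene107858, with r = 0.85 (1.24%), and to Unigene224044, with r = 0.82 (1.999%). For IO the nearest were G10H Unigene278905, with r = 0.89 (4.94%), which was above 0 in inflorescence alone, and geranyl diphosphate synthase Unigene249289, with r = 0.83 (8.38%). The rho of these IO pairs was 0.65 and 0.49. For the nearest unigenes of the members other than IO and Unigene112559, rho lay between 0.77 and 1. In no case was a unigene of the same step among the closest 2.

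Other steps of the list gave a measure of how often unigenes of 1 enzyme differ in pattern. Of the 253 pairs of unigenes that share an enzyme in the iridoid list and passed the filter, 109 had a negative r over the 6 tissues, and the median was 0.15. The 7DLH pair, at -0.03, and the SLS pair, at -0.21, lay at or above 104 and 72 of these pairs, counting themselves. Which of the 253 pairs lie within or across the study's co-expressed cluster was not considered. If the first block of the list is that cluster, the 7DLH pair and the SLS pair both lie across its edge. That cluster was drawn from the same tissues, so a pair across its edge may have a low r by selection. Metabolite levels of the study are not analysed here.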

How the data were processed

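RNA-seq values of 7 tissues of *C. officinalis* were used, with 1 library per tissue and groups taken from the tissue labels. According to the study's methods and the submitters' processing notes, the authors trimmed the reads with Trimmomatic, joined several *de novo* assemblies into non-redundant unigenes, mapped the reads with Bowtie and estimated FPKM with RSEM. These deposited FPKM values are the starting point. The tissue tables and the table of the whole series held equal values.

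Levels were compared as FPKM or as log2(FPKM + 1), with a pseudocount of 1, which understates the fold change of low unigenes. Unigenes that reached an FPKM of 1 in any of the 6 tissues other than mature stem formed the background, and a difference of 2 on this scale (4-fold) was called. With 1 library per tissue no test was run, and precision is limited by depth, which FPKM does not give. Relative depth was read from unigenes above 0 in exactly 2 libraries, as the ratio of values that occurs most often.

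Enzyme names were taken from the study's list of 83 iridoid unigenes. Named unigenes are the 6 described, each unigene with the highest FPKM of its step in a tissue, and the 2 unigenes of the list closest to each by Pearson's r. The highest unigene of the P450 steps in mature stem is also named. Unigene075850 is named beyond this rule in the account of SLS, after its values were seen. The members, lists and alternatives were chosen with earlier results of these data known. Alternatives covered the pseudocount, the filter, the fold, rescaling to an equal sum (TPM) or by the median ratio over 5988 unigenes that reached an FPKM of 10 in all 6 tissues, mature stem and leaving out each tissue. Metabolite values were not used. The scripts ran in Python 3.11.15 (scipy 1.17.1, pandas 2.3.3, numpy 2.4.6; figures with matplotlib 3.10.9) and were tested on simulated data.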

Additional observations from a re-analysis of the deposited data

How the results depend on the processing

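The highest tissue of each of the 6 unigenes and of the 4 summed steps was the same under both rescalings. These cannot change the order of the unigenes within a library. A smaller pseudocount can only widen a difference, and the rescalings shifted the libraries too little to reverse one past 4-fold. Of the 12 tissue differences past 4-fold, all stayed past it with the median ratio. With TPM 10 did, the exceptions being Unigene120969 and Unigene137214 between pericarp and seed. A call at 2-fold gave 19 differences in place of 12, against a mean share of 32.3% of all unigenes, and a call at 8-fold gave 5, against 1.36%. At 8-fold, 3 of the 6 unigenes had a range past the threshold in place of 5, against 7.02% of all unigenes. At 4-fold it was 4 with TPM and 4 with the median ratio, against 31.0% and 27.7%. The share of all unigenes with a range past 4-fold moved from 28.1% to 87.1% with a pseudocount of 0.1, where IO also passed, to 62.7% with a minimum FPKM of 5 and to 52.1% with mature stem. Over 11 alternatives, r of the SLS pair ran from -0.87 without seed to 0.48 with mature stem, and r of the 7DLH pair from -0.59 without pericarp to 0.58 on FPKM without the logarithm. No paired analysis was possible because each tissue has 1 library. Values near an FPKM of 1, as of IO, cannot be ordered with any stated precision, since the depth is unknown.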
